A study of Mus musculus with 8 samples.

Results

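Both members of the mouse miR-26 family, miR-26a (mmu-miR-26a) and miR-26b (mmu-miR-26b), were followed in skeletal muscle of 8 samples, 4 from control and 4 from diabetic mice, each hybridised to 1 Agilent array. They were taken as the array entries with exactly these names and are 2 of the 567 mouse miRNAs on the array. The diabetic group is the C57BL/KsJ db/db mouse, which is obese because its leptin receptor does not signal, and the control group is labelled C57BL/KsJ db+. Titles, descriptions and group entries give these groups, but each sample's strain entry names the opposite genotype, so every direction here is diabetic minus control by title. Age, sex and the muscle taken are not given in the sources used here. Whether each array is a separate animal is not stated either, so p-values measure the spread between these samples, which may be technical.

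A miRNA guides a silencing complex to messenger RNAs that pair with its seed, the bases near its 5′ end, and lowers the output of those messages. The miR-26 genes lie inside genes of the Ctdsp family, which code for small phosphatases of the carboxy-terminal domain of RNA polymerase II, and host and miRNA are known to be made together. In muscle, miR-26a is known as a repressor of the histone methyltransferase Ezh2 during myoblast differentiation, and in liver as a regulator of insulin signalling and glucose output.

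The mature sequences are shown because the miRNAs share their seed while the array must tell them apart by a few bases. They come from RefSeq annotation of GRCm38.p6, in which both members were matched as the 5p arm, and are written with the seed (bases 2 to 8) in capitals.
miR-26a: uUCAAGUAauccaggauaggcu
miR-26b: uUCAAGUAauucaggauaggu
The seeds are identical, and these are the 2 mature miRNAs with this seed among 1679 in the table. The same sequences with the differing bases in capitals show where they part.
miR-26a: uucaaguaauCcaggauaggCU
miR-26b: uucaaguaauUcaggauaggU
Counting from 1 at the 5′ end, 19 of the 21 shared positions are identical and the substitutions from miR-26a to miR-26b are C11U and C21U. miR-26a has 22 bases, of which 9 are G or C, and miR-26b has 21, of which 7 are G or C. The next closest mature miRNA in the table has 8 mismatches to miR-26a without gaps.

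miR-26a is made from 2 hairpins and miR-26b from 1, shown here with the mature 5p arm in capitals, because the array reads the shared product of the miR-26a pair and cannot tell its genes apart.
Mir26a-1: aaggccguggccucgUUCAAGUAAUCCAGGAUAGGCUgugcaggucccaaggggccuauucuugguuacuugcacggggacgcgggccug
Mir26a-2: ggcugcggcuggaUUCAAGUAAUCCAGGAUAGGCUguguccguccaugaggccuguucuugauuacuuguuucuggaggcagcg
Mir26b: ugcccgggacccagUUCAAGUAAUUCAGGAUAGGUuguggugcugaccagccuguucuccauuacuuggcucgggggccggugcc
In GRCm38.p6, Mir26a-1 lies at chr9:119031796-119031885 on the plus strand, within the span of Ctdspl. Mir26a-2 lies at chr10:126995530-126995613 on the plus strand, within Ctdsp2. Mir26b lies at chr1:74394310-74394394 on the plus strand, within Ctdsp1. The array measured none of these host messages. Its design names the mm9 build, and no coordinate of that build is used here.

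Both mature miRNAs were detected on all 8 arrays. Each was read by 2 probes of 10 spots, and all 80 spot readings of every probe were well above background, with 0 saturated. Averaged over its probes, the background-subtracted intensity of miR-26a was 286 to 656 per array and that of miR-26b 87.2 to 205. These intensities cannot be set against each other as abundances, because probes differ in brightness. The other strand of the Mir26b hairpin, miR-26b* (mmu-miR-26b-3p in RefSeq), has another sequence and another seed.
miR-26b*: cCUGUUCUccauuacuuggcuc
It was detected on 0 arrays: of 160 spot readings over its 4 probes, 1 was well above background, and its probe means ran from −2.59 to 5.50. No comparison was made for it.

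Arrays differed in overall brightness, so intensities were divided by each array's 75th percentile over 152 probes detected on all arrays and put on a log2 scale. A level of 0 is therefore that percentile. That percentile was 219 to 618 in intensity, lowest on diabetic 4 and highest on control 2. The muscle miRNAs miR-1, miR-133a, miR-133b and miR-206 were detected on 8 of 8 arrays, miR-208b on 4 and miR-499 on 0. The brain miRNAs miR-124 and miR-9, the lymphocyte miRNA miR-150 and the liver and gut miRNA miR-194 were detected on 0 arrays. The liver miRNA miR-122 was detected on 5 arrays and miR-192, also read as a liver miRNA here, on 7. Of the miRNAs read as neural here, miR-128 was detected on 8. The blood-cell miR-142-3p was detected on 3, the red-cell miR-144 on 1, and the myeloid miR-223 and red-cell miR-451 on 8.

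miR-26a, the member with 2 genes, had higher mean levels on the diabetic arrays but did not pass the test. Its level was 0.37, −0.43, 0.02 and 0.05 on control 1 to 4, and 0.51, 0.45, 0.32 and 0.38 on diabetic 1 to 4. The groups overlapped in 1 place, with control 1 above diabetic 3 and otherwise every control array below every diabetic array. Control arrays had a mean of 0.0012 ± 0.33 and diabetic arrays one of 0.42 ± 0.08 (SD, n = 4). The limma log2 difference was 0.41 (SE 0.21, 95% interval −0.06 to 0.88, limma unadjusted p = 0.0787, adjusted p = 0.391). This is a fold of 1.33, with an interval from 0.962 to 1.85. The interval includes 0 difference.

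miR-26b showed a smaller shift in the same direction and did not pass either. Its level was −1.73, −1.72, −1.34 and −1.35 on control 1 to 4, and −1.26, −1.23, −1.25 and −1.33 on diabetic 1 to 4. Control 1 and control 2 were low, while control 3 and control 4 lay just under the diabetic arrays. Control arrays had a mean of −1.53 ± 0.22 and diabetic arrays one of −1.27 ± 0.05 (SD, n = 4). The limma log2 difference was 0.27 (SE 0.19, 95% interval −0.16 to 0.69, limma unadjusted p = 0.199, adjusted p = 0.627), a fold of 1.20 with an interval from 0.894 to 1.62.

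Of the 126 miRNAs detected on at least 4 arrays and tested together, 6 passed an adjusted p of 0.05 in limma, all of them higher on the diabetic arrays (4.76%). That count rested on single arrays: it was 2 when any of control 1, control 2 and diabetic 1 to 3 was left out, and 10 without control 3. Among the members 0 of 2 passed. An unadjusted p under 0.05 was found for 0 of 2 members and for 21 of the 126 tested miRNAs (16.7%). miR-26a ranked 25 of 126 by p and miR-26b 40. By size of the signed difference they ranked 12 and 24 from the top, where 58 of 126 (46.0%) had a positive difference and the median over all tested miRNAs was −0.06.

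**Figure D1:**
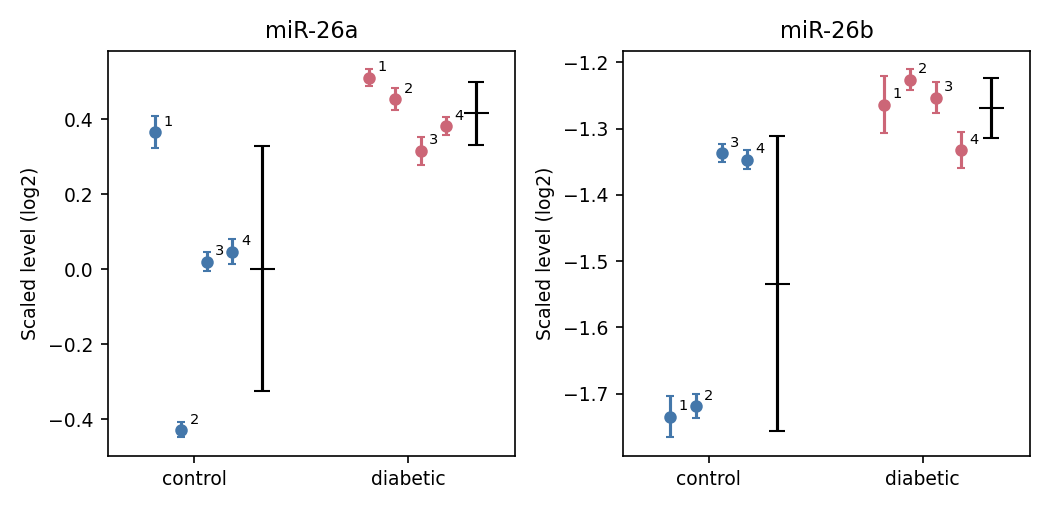
Scaled log2 level (75th percentile of each array = 0) of miR-26a and miR-26b on the 4 control and 4 diabetic arrays, numbered by replicate. Coloured bars are the standard error from the spots of an array, and black bars the group mean ± SD; the diabetic arrays lie close together and the control arrays spread, with control 2 lowest for miR-26a and control 1 and control 2 lowest for miR-26b.

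**Figure D2:**
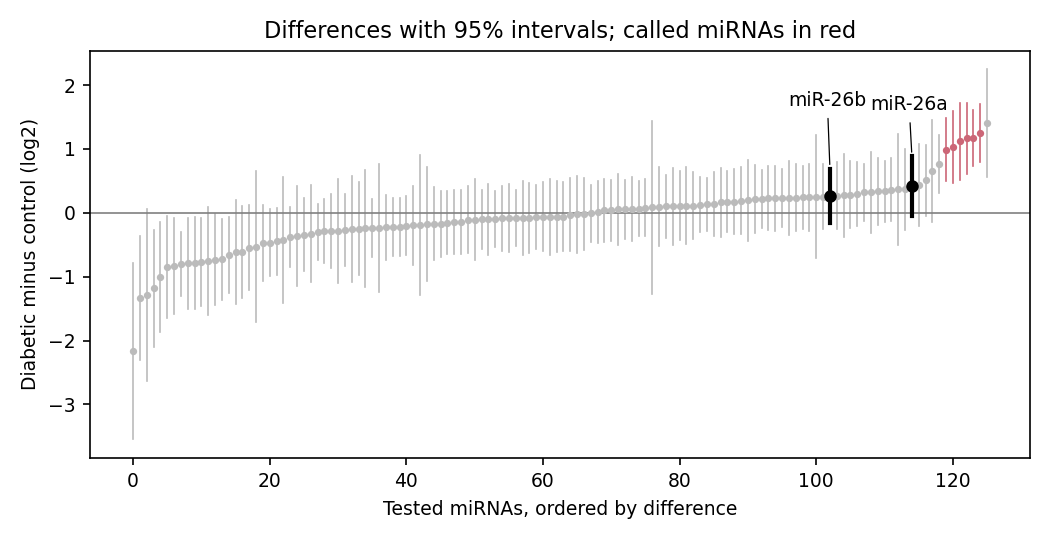
Diabetic minus control log2 difference of the 126 tested miRNAs, ordered by size, with 95% intervals from limma. The intervals of miR-26a and miR-26b (black) both include 0, and the 6 miRNAs that passed the test are red.

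The groups of miR-26b did not overlap, with the lowest diabetic array above the highest control array. Such a separation with diabetic arrays higher was found for 10 of the 126 tested miRNAs (7.94%). The exact permutation p of miR-26b taken alone was 0.0286 (two-sided, 70 assignments), which is the smallest this design can give and is not adjusted over the 126 miRNAs. For miR-26a it was 0.0571. The separation of miR-26b was narrow: its lowest diabetic array, −1.33, exceeded its highest control array, −1.34, by 0.0047 on the log2 scale, and the standard error of a single array's level from its spots was 0.014 to 0.043. Among 10 other ways of computing the levels it was present in 2 and absent in 8. For miR-26a the groups did not overlap in 2 of those 10.

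The probes of each miRNA gave like differences. For miR-26a the difference was 0.41 (SE 0.21, adjusted p = 0.397 in limma) with the brighter probe, A_54_P4384, and 0.41 (SE 0.22, adjusted p = 0.405 in limma) with the dimmer probe, A_54_P2481. For miR-26b it was 0.28 (SE 0.20, adjusted p = 0.593 in limma) with the brighter probe, A_54_P2484, and 0.23 (SE 0.20, adjusted p = 0.710 in limma) with the dimmer probe, A_54_P2483. These fits covered the 207 probes detected on at least 4 arrays, of which 10 passed (4.83%), and 0 of the 4 miR-26 probes did. With the brighter miR-26b probe the groups did not overlap, and with the other 3 probes they did.

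The spread over the spots of a probe gives only the spot noise of a reading. Error from labelling or hybridisation is shared by the spots of an array and is not in it. The coefficient of variation over the spots of a probe on an array had a median of 6.19% and 13.8% for the brighter and dimmer probes of miR-26a, and of 5.35% and 7.43% for those of miR-26b. As a standard error of an array's level, spot noise came to 0.020 to 0.044 on the log2 scale for miR-26a and 0.014 to 0.043 for miR-26b. The SD between arrays also holds any error of labelling or hybridisation and any difference between samples. This SD was 0.33 and 0.085 for miR-26a on the control and diabetic arrays, and 0.22 and 0.045 for miR-26b. On the diabetic arrays the miR-26b SD was thus close to the largest spot error. Outlier spots were dropped, 13 of 80 for A_54_P2484 against 2, 1 and 0 for A_54_P4384, A_54_P2481 and A_54_P2483.

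**Figure D3:**
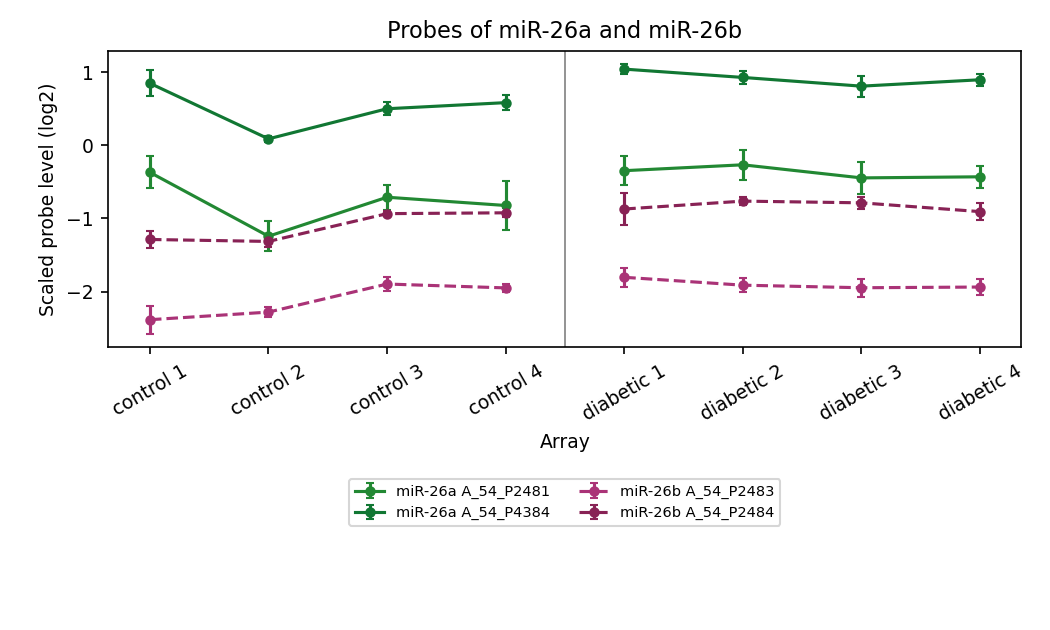
Scaled log2 level of the 4 probes on each array, with the SD over spots as bars; solid lines are miR-26a and dashed lines miR-26b, and lines only join the points of a probe. Both miR-26b probes are low on control 1 and control 2, while both miR-26a probes are low on control 2 alone.

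Both members varied more between control arrays than between diabetic arrays. The SD over the control arrays was 3.85 times that over the diabetic arrays for miR-26a and 4.94 times for miR-26b. Single arrays moved these ratios: that of miR-26a was 2.27 without control 2, and that of miR-26b was 11.5 without diabetic 4. This was common to the array set: 113 of 126 tested miRNAs varied more over the control arrays (median SD 0.43 against 0.23). No test of this spread was made. Both members were among the steadier miRNAs. Ranked from the most variable, miR-26a stood 94 of 126 by control SD and 114 by diabetic SD, and miR-26b 117 and 121.

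Control arrays differed from each other in different ways for each member. On control 1, miR-26a was 0.49 above the mean of the other control arrays and miR-26b 0.27 below it. On control 2, miR-26a was 0.57 below the others and miR-26b 0.25 below. The log2 level of miR-26a minus that of miR-26b, which does not depend on how an array is scaled as a whole, was 2.10, 1.29, 1.36 and 1.39 on control 1 to 4. On diabetic 1 to 4 it was 1.77, 1.68, 1.57 and 1.71. Control 1 stood above every diabetic array and the other control arrays below every one. Its size is not a ratio of abundances, and only its change between arrays is read.

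The group means of this within-array difference were 1.54 ± 0.38 for control and 1.68 ± 0.09 for diabetic arrays (SD, n = 4). They differed by 0.15, less than the control SD (two-sided exact permutation p = 0.543, smallest possible 0.0286). Without control 1 the difference was 0.34, with every remaining control array below every diabetic array (two-sided exact permutation p = 0.0286 over the assignments of 7 arrays, the smallest possible). With quantile normalization it was −0.027 (p = 0.914, exact permutation). So 1 array decides whether the members' shifts differ, and with all 8 arrays a difference between them was not detected.

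**Figure D4:**
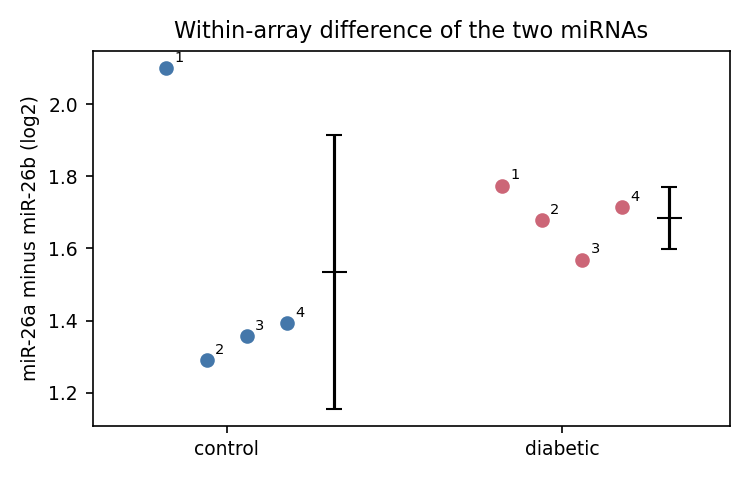
Log2 level of miR-26a minus that of miR-26b on each array, numbered by replicate, with group mean ± SD as black bars. Control 1 lies at 2.10, the other 3 control arrays lie between 1.29 and 1.39, and the diabetic arrays between 1.57 and 1.77.

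The probe pairs tracked each other within a miRNA more closely than the miRNAs did. Over the 8 arrays the log2 ratio of the brighter to the dimmer probe ranged over 0.21 for miR-26a and 0.23 for miR-26b, while miR-26a minus miR-26b ranged over 0.81, or over 0.48 without control 1. How much of each miRNA binds the probes of the other was not tested. After removal of group means, miR-26a and miR-26b correlated over the 8 arrays at r = 0.091 (Spearman −0.024), at r = 0.73 without control 1 and at r = 0.30 without control 1 and control 2. These are descriptions over arrays that share a slide and a scan, with no test.

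The other tested miRNAs were ranked by how closely their levels followed each member over the 8 arrays, as a description with no test. Only the highest values are named, so a high r is in part fixed by that choice. The miRNAs most like miR-26a, by Pearson r over the 8 arrays after removal of group means, were miR-185 (r = 0.98), miR-100 (r = 0.95), miR-99a (r = 0.93), miR-378* (r = 0.91) and the muscle miRNA miR-133a (r = 0.90). The likeness was lower without control 1 and control 2, where the values were 0.86, 0.80, 0.65, 0.57 and 0.52. The level of miR-133a was 5.001, 3.71, 4.44 and 4.65 on control 1 to 4, highest on control 1 and lowest on control 2, as for miR-26a. On the diabetic arrays miR-133a was 4.68, 4.46, 4.19 and 4.85.

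miR-26b had other companions. They were miR-24-1* (r = 0.94), miR-27a (r = 0.93), miR-101a (r = 0.89), miR-30e (r = 0.89) and miR-27b (r = 0.88), of which miR-24-1* and miR-27b come from 1 gene cluster. Without control 1 and control 2 these were 0.93, 0.86, 0.81, 0.91 and 0.81. Each of the 5 had an r of at most 0.48 with miR-26a, and each of the 5 companions of miR-26a had an r of at most 0.17 with miR-26b. Each companion was picked for its high r with 1 member, and the members themselves correlated at r = 0.091. A low r with the other member is therefore in part fixed by that choice. Of these 10 companions, miR-101a passed the test between groups (log2 difference 1.03, SE 0.25, limma adjusted p = 0.0368), and the other 9 had differences from −0.24 to 0.65 and did not pass.

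**Figure D5:**
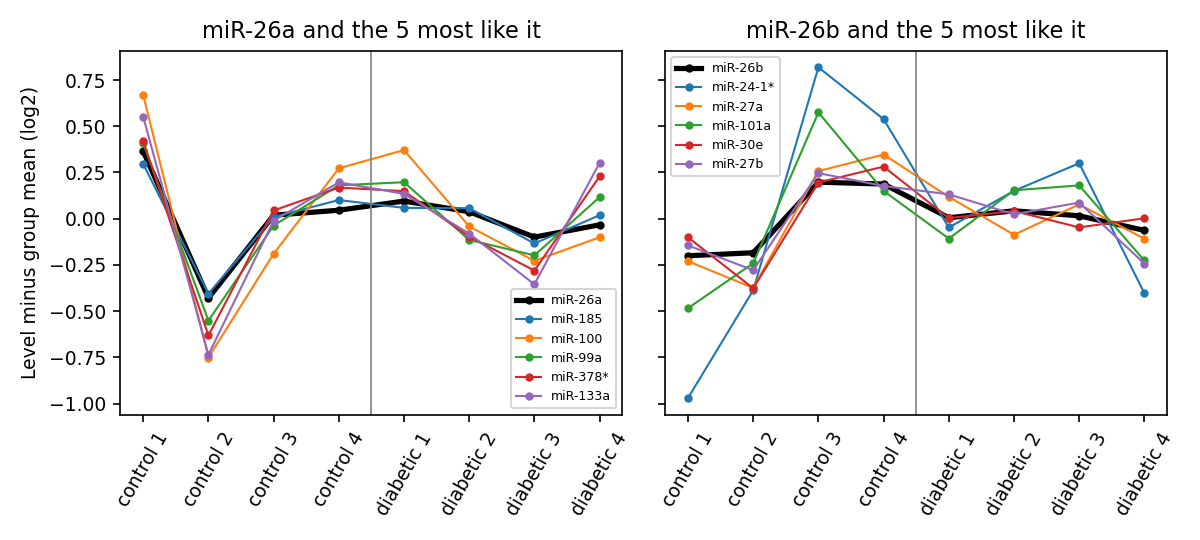
Log2 level minus group mean on each array for miR-26a and miR-26b (black) and the 5 miRNAs most like each (colours); lines only join the points of a miRNA. The companions of miR-26a are highest on control 1 and lowest on control 2, and those of miR-26b are low on both.

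Lists of miRNAs linked to the same processes were read against the 6 of 126 (4.76%) that passed among all tested. Of 14 tested miRNAs known from myogenic differentiation, 3 were higher and 0 lower, with a median log2 difference of −0.09 beside −0.06 over all tested miRNAs. The 3 were miR-29c (1.25, SE 0.20, limma adjusted p = 0.00642), miR-29c* (1.17, SE 0.20, limma adjusted p = 0.00642) and miR-29b (0.99, SE 0.22, limma adjusted p = 0.0283); miR-29b and miR-29c are known as repressors of collagen messages. In the list for insulin and glucose metabolism, of 19 tested 3 were higher and 0 lower, with a median of −0.03. They are the same 3, because both lists contain the miR-29 family. Among the miRNAs listed for skeletal muscle, miR-486 included, 0 of 7 passed in limma (1 at an unadjusted p under 0.05, beside 16.7% of all tested). Of these, 4 of 7 were positive (beside 46.0% of all tested) and the median was 0.09. Those with the smallest p were miR-206, which rises in regenerating muscle, at −1.33 (limma adjusted p = 0.132) and miR-133a* at 0.51 (limma adjusted p = 0.382).

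Tissue makeup can move a miRNA level in a bulk sample, where fewer cells of a type and less RNA per cell cannot be told apart. The mean log2 level of the 7 muscle miRNAs was 1.09 to 1.84 on the control and 1.23 to 1.51 on the diabetic arrays. It was lowest on control 2, where miR-26a was also lowest. That low was not particular to muscle: the means of the endothelial, liver, myogenic and insulin lists were also lowest on control 2. By their differences there from the other control arrays, miR-26a ranked 56 of 126 from the lowest and miR-26b 95. By the same measure on control 1, miR-26b ranked 107 of 126 from the highest. The mean of 5 stromal miRNAs was −2.98 to −2.19 on the control arrays and −2.98 to −2.96 on the diabetic arrays. It was −2.19 on control 1 and −2.22 on control 4. The mean of 3 leukocyte miRNAs was −3.61 to −2.78 on the control and −4.31 to −3.45 on the diabetic arrays, highest on control 2 and control 1, where miR-26b was lowest. miR-451 of red cells was −0.23 to 1.23 and −0.57 to 0.57, highest on control 2. The part of these cell types in the miR-26 levels was not tested. These lists held 3 tested leukocyte, 5 stromal, 2 liver, 1 red-cell, 1 endothelial and 1 neural miRNA. Of them 0 passed in limma, beside 4.76% of all tested. Those with the smallest p were miR-342-3p at −0.80 and miR-223 at −1.29 (leukocyte), and miR-199a-5p at −0.66 and miR-199b at −0.45 (stromal). The others were miR-451 at −0.33, the endothelial miR-126-3p at −0.07, miR-192 at 0.27 and miR-122 at 0.08 (liver), and miR-128 at −0.14 (neural). A positive difference was found for 0 of 3 leukocyte and 0 of 5 stromal miRNAs, beside 46.0% of all tested. The groups of miR-342-3p did not overlap, with the diabetic arrays lower (limma adjusted p = 0.0611).

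All control arrays lay in slide row 1 and all diabetic arrays in slide row 2, so row and group cannot be told apart. Slide columns held 1 array of each group. Within columns 1 to 4, miR-26a was higher on the diabetic array by 0.14, 0.88, 0.30 and 0.34, and miR-26b by 0.47, 0.49, 0.084 and 0.015. The direction was the same in 4 of 4 columns for both, which adds no support beyond the levels above. For miR-26b any pairing of control with diabetic arrays gives this, because its groups do not overlap. For miR-26a only a pairing of control 1 with diabetic 3 would break it. The miR-26b shift in columns 3 and 4 was small beside that in columns 1 and 2.

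The size of the members' differences moved with single arrays and with the scaling, while 0 of the alternatives made limma call either. Without control 2 the difference of miR-26a was 0.27, and with arrays scaled by all mouse probes, detected or not, it was 0.74. With that scaling miR-26b was at 0.59, and without scaling it was at 0.16. That scaling moved the median difference of all tested miRNAs from −0.06 to 0.26. It shifts every miRNA on an array alike, values at the floor aside, so the members' place among the other miRNAs is the same by construction.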

How the data were processed

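Total RNA, 100 ng per array per the labels' protocols, was labelled with Cy3 and hybridised to 8 arrays on 1 slide. Per the file headers, spots were read with Feature Extraction 10.5, and the deposited intensity values are background-subtracted spot signals with spatial detrending and no normalization between arrays. The deposited flags (0 or 1) for outliers, saturation and detection were used as given.

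Outlier spots were dropped and spots averaged per probe. A probe counted as present on an array if 50% or more of its remaining spots were well above background. As 12.4% of probe values met this, array values were scaled to the 75th percentile of the 152 probes present on every array. Scaled values were averaged over a miRNA's probes and log2-transformed, with values under 0.0162 (percentile 1 of the detected levels) set to it, which affected 0 member values. A linear model with group as its only term was fitted to the 126 miRNAs detected on at least 4 arrays (limma 3.58.1, R 4.3.3), and p-values were adjusted over all 126 (Benjamini-Hochberg). The step was also run on simulated data in which both groups had the same spread, unlike these arrays. Recovery was required only for a change much larger than the members' differences, so the run does not bear on them. Figures used matplotlib 3.10.9.

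The members, the miRNA lists and the alternatives were chosen with earlier results of these data known. Names in the text are the members and their other strands, the 5 miRNAs most like each, and from each list those past the threshold and the 2 with the smallest p. The files have no mean spot signal, so normexp used median signals. The number of arrays limits precision. No pair of arrays held identical values.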

Additional observations from a re-analysis of the deposited data

Results flagged for a closer look

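The difference between miR-26a and miR-26b on control 1 stood apart from the other control arrays, at a log2 value of 2.10 against 1.29 to 1.39. Its gap to the nearest of them took up 0.872 of the range of the 4 control arrays, above Dixon's critical value at 95%. It was 1 of 18 sets of 4 values examined, and chance alone passes about 1 in 20. On control 1 both miR-26a probes were above the other control arrays, at 0.85 against 0.089 to 0.59 (A_54_P4384) and at −0.37 against −1.24 to −0.71 (A_54_P2481). Of the miR-26b probes, A_54_P2483 was below them, at −2.39 against −2.28 to −1.90, and A_54_P2484 was at −1.29, within their range of −1.31 to −0.92.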

How the results depend on the processing

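Over 26 alternatives each, the exact permutation test among them, the log2 differences of miR-26a and miR-26b stayed positive. In the other alternatives, which used limma, neither was called. The differences ran from 0.27 to 0.74 and from 0.16 to 0.59. When single arrays were left out in turn the ranges were 0.27 to 0.54 and 0.20 to 0.33. The exact permutation test of miR-26b alone passed at p = 0.0286 with the same difference of 0.27. The group difference of miR-26a minus miR-26b ran from 0.067 to 0.34 when single arrays were left out. It was 0.34 without control 1 (exact permutation p = 0.0286), the only control array above the diabetic arrays. With quantile normalization it was −0.027, and the cause was not tested. The number of miRNAs called was 6, with 6 higher. It was 0 without scaling, 10 with the brightest probe of each miRNA (8 higher, 2 lower), 2 with no detection filter, 3 without control 2 and diabetic 4 together (chosen after seeing the data, as was centring on the median of the tested miRNAs), and 2 to 10 when single arrays were left out. Whether replicate numbers pair the arrays was not settled. The deviations of same-numbered arrays correlated at 0.21, 0.08, 0.51 and −0.29, and 4 of 8 arrays correlated best with their own number. The replicate number is also the slide column. With the replicate block the count was 10 (7 higher, 3 lower), the miR-26a and miR-26b differences were 0.41 and 0.27, and neither passed (limma adjusted p = 0.403 and 0.669; over all limma alternatives 0.100 to 0.998 and 0.251 to 0.998). All spots of both miRNAs were well above background on every array. Leaving out single arrays for the spread ratios and for the range of miR-26a minus miR-26b was also chosen after seeing the data.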
